A study of Mus musculus with 6 samples.

Results

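The genes described here build, branch, cap and dismantle actin filaments. The 41 genes were set by name and comprise nucleation-promoting factors, the WAVE regulatory complex, the Arp2/3 complex, ADF/cofilin and its regulators, profilins, formins and Ena/VASP proteins, capping protein, and small GTPases with PAK kinases. On the Affymetrix MG430 2.0 chip, 97 probe sets carried 1 of these genes as their single symbol, and 77 of them, for 35 genes, reached a mean signal of 100 in 1 or more groups. The whole table held 23262 probe sets above this minimum, for 12325 genes. Each chip was hybridised with hippocampal RNA pooled from 4 male Tg2576 mice on a C57BL/6 background. All mice, controls included, carried the APPSwe transgene, a Swedish mutant form of the human amyloid precursor protein that is driven by the prion protein promoter in neurons, so no group was free of the transgene. The 3 groups held 2 chips each and comprised untreated mice of 18 months with a high Aβ plaque load (Tg-18mo), mice of 18 months that had received the angiotensin-converting enzyme inhibitor captopril in the drinking water at 20 mg/kg/day over the last 6 months (Tg-18mo-ACEI), and untreated mice of 12 months with a low plaque load (Tg-12mo). Signals without treatment are those of Tg-18mo, signals with captopril those of Tg-18mo-ACEI, and signals at 12 months those of Tg-12mo, each for chip 1 and then chip 2. Whether both chips of a group carried different pools is not stated, and p-values measure only the spread between chips, which may be technical.

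Actin filaments grow when nucleators start new chains from actin monomers. The Arp2/3 complex starts branches on existing filaments once it is switched on by N-WASP, encoded by Wasl, or by a WAVE protein held in the WAVE complex, and these in turn are switched on by the GTPases Cdc42 and Rac1. Cofilin severs old filaments and is inactivated by LIM kinases and reactivated by slingshot phosphatases, profilin feeds monomers to formins and Ena/VASP proteins, and capping protein stops growth at filament ends. In hippocampal neurons this machinery shapes dendritic spines, growth cones and presynaptic terminals.

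Of the other 6 genes, Wasf3 had 2 probe sets that were both below the minimum signal. Arpc1b was represented only by 2 probe sets that share their annotation with Gm5637 and were left out. Cyfip1, Actr2, Arpc3 and Pak1 had no probe set in the annotation used here. Of the 35 genes measured, 27 had more than 1 kept probe set, so a gene is given by its brightest probe set and the others are named where they differ. Probe sets named _x or _s can bind transcripts of other genes, and those named _a bind several transcripts of their own gene.

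Wasl and Cfl2, which encodes the muscle-type cofilin, were the members with a probe set that differed at least 2-fold between groups, and their promoters are shown for that reason. The windows are the 250 bases before the RefSeq start in build GRCm38.p6. That of Wasl lies at chr6:24664996-24665245 on the minus strand and has a GC content of 71.2%, and that of Cfl2 lies at chr12:54862878-54863127 on the minus strand with a GC content of 74.4%. Capitals mark a CCAAT box, which on the printed strand reads as its reverse complement.
Wasl: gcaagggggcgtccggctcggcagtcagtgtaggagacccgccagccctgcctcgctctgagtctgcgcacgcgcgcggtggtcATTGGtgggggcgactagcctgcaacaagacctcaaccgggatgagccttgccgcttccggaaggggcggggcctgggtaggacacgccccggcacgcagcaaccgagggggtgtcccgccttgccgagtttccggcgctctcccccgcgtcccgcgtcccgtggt
Cfl2: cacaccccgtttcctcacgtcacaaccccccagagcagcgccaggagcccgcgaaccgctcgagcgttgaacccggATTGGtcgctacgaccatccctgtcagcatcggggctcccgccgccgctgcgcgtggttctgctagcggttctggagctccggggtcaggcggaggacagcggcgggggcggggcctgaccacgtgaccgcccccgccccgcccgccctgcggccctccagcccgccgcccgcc
The letters CCAAT, on either strand, were present in 15 of 44 such windows of the members (34.1%), against 33.8% of all 32851 windows in the RefSeq table. The letters TATAAA were present in 1 of 44 windows, that of Cdc42, against 12.4% of all windows. The CArG box, the site of the actin-linked serum response factor, was present in 1 of 44, that of Arpc4 (2.27% against 1.47%). These are matches of letters and not sites shown to be used.

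Chip quality and tissue were described without a test. The 3′/5′ signal ratio of the β-actin control was 1.98 and 1.88 without treatment, 1.45 and 1.38 with captopril and 1.83 and 1.77 at 12 months, while that of Gapdh lay between 0.828 and 0.862 on all chips. Control probe sets also set groups apart. The 3′ probe set of 18S ribosomal RNA had signals of 10219 and 11144 without treatment, 2214 and 1999.9 with captopril and 2125 and 2121 at 12 months. The spiked hybridisation control CreX (3′) had 12146 and 12784, 13009 and 11746, and 27344 and 27872 in the same order, so both chips of 12 months were far above the other 4. Another spiked control, DapX (3′), set all 3 groups apart, with 707 and 662, 1511 and 1538, and 4698 and 4941. The part of these controls in the captopril comparison was not tested. The 12 hippocampal neuron markers were above the minimum signal in all groups, with a summed signal of 79879 to 83006 without treatment, 79296 to 81982 with captopril and 100715 to 101754 at 12 months. Single neuron markers went both ways. With captopril 2 of the 12 were higher and 3 lower, and at 12 months 5 were higher and 4 lower than at 18 months (limma). Over the brightest probe sets of all genes, 12.6% were higher and 21.7% lower with captopril, and 21% and 28% at 12 months. Of 12 choroid plexus markers, 11 were lower with captopril (median log2 difference of the 12 -2.39), and their summed signal without Ttr, the exception, was 11369 and 11473 without treatment, 2685 and 2801 with captopril and 10829 and 10875 at 12 months. Ttr, the brightest, had 17548 and 19806, 20358 and 18370.3, and 36597 and 36156 in the same order, and the sum of all 12 was 28917 to 31279, 21171 to 23043 and 47031 to 47426. Of 10 markers of meninges and fibroblasts, 7 were lower with captopril, with sums of 9457 to 9512, 5157 to 5261 and 13256 to 13321. Of 14 microglia markers, 6 were lower and 2 higher with captopril, and 8 were lower and 2 higher at 12 months than at 18 months. Of 9 astrocyte markers, 3 were lower and 3 higher with captopril, and 3 were lower and 4 higher at 12 months. Of 8 endothelial markers, 1 was lower and 2 higher with captopril, and 3 were lower and none higher at 12 months. Of 7 smooth muscle and pericyte markers, 4 were lower with captopril and 4 at 12 months, with sums of 11073 to 11366 without treatment, 8151 to 8329 with captopril and 8012 to 8251 at 12 months. Of 8 oligodendrocyte markers, 4 were lower and none higher with captopril (limma), and 3 were lower and 4 higher at 12 months. Their sums were 61610 to 63367 without treatment, 54098 to 56181 with captopril and 82964 to 83294 at 12 months. None of the markers of these lists was at 0 on any chip. Their part in the results on the actin genes was not tested.

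The first question was which of these genes differed between captopril-treated and untreated mice of the same age. With captopril, a probe set of Wasl was far higher, and Limk2, Arpc4 and probe sets of Cttn were lower. Subunits of the WAVE complex were higher on 5 of 10 probe sets, but on the brightest probe set of only 1 of its 5 genes. The brightest probe set of 29 of 35 genes did not pass. In all, 13 of 77 probe sets (16.9%) were higher at an adjusted p under 0.05 (limma), against 15.9% of all probe sets tested. Lower were 10 of 77 (13%), against 17.7% of all. By probe sets, the share of members called higher was thus near that of the whole chip, while the share called lower was below it. By the brightest probe set, Abi2, Pfn1 and Diaph2 were higher and Limk2, Arpc4 and Wasf2 were lower, 3 of 35 genes (8.57%) in each direction, against 12.6% higher and 21.7% lower over all genes. After quantile normalization 6 genes were higher, Abi2 and Pfn1 together with Wasf1, Nckap1, Arpc5 and Capza2, and Diaph2 did not pass. The share of all genes called on that scale is not given here for any comparison. Counts after quantile normalization therefore cannot be set against the whole chip. On the deposited scale, the median log2 difference of the 35 genes was 0.01, and over the brightest probe sets of all genes it was -0.08. Of the 13 higher probe sets, 7 remained called when each chip was left out in turn, as did 5 of the 10 lower ones. The higher count was 7 without chip 2 of Tg-18mo-ACEI and 8 without chip 2 of Tg-18mo, and that of lower probe sets was 6 without chip 1 of Tg-18mo, 5 without its chip 2 and 5 without chip 2 of Tg-18mo-ACEI. In pooled tissue RNA, fewer cells of a type and less RNA per cell cannot be told apart.

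**Figure D1:**
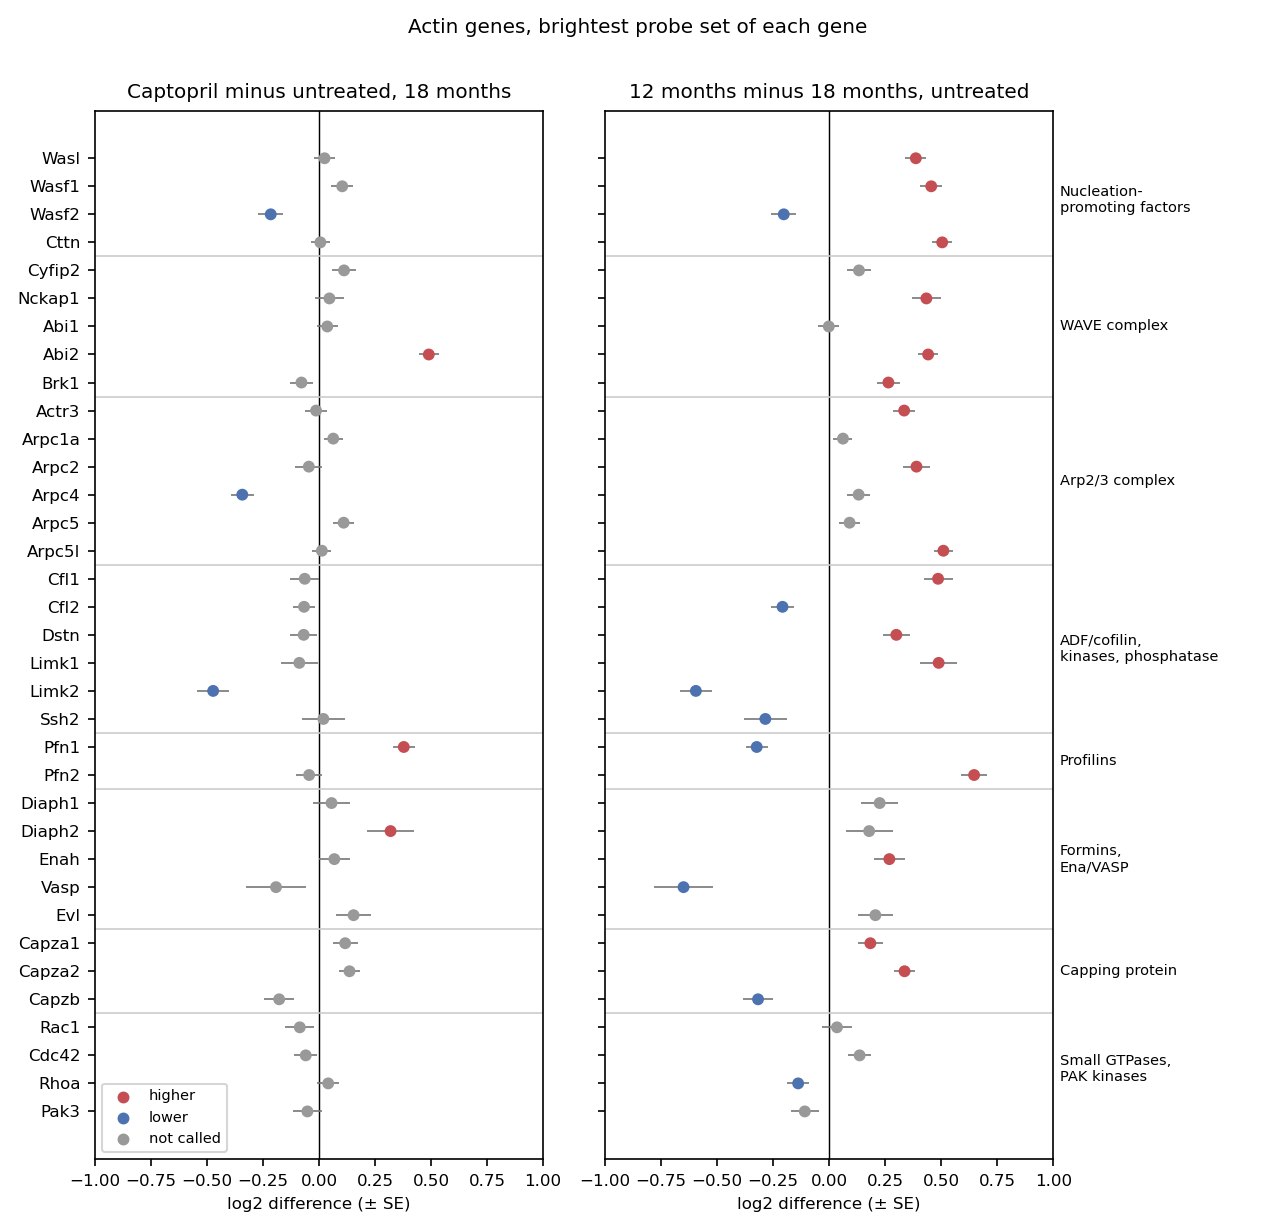
Log2 differences in signal (horizontal axes, ± standard error of the limma fit, 2 chips per group) of the brightest probe set of each of 35 actin genes, for captopril-treated against untreated mice of 18 months (left) and for untreated mice of 12 against 18 months (right). Red and blue points passed at an adjusted p under 0.05 (3 higher and 3 lower on the left, 16 higher and 8 lower on the right) and grey points did not.

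Among the nucleation-promoting factors, which switch on the Arp2/3 complex, Wasl had the largest difference of any member. Its probe set 1426777_a_at had signals of 713 and 739 without treatment, 3101 and 3046 with captopril and 1494 and 1418 at 12 months. No chips of different groups overlapped, and the captopril-treated mice were highest. The mean with captopril was 4.23-fold that of untreated mice of the same age (log2 difference 2.08, standard error 0.06, adjusted p = 3.6e-07, limma). The study listed this probe set from the same chips, so the value is not independent evidence. The other 2 Wasl probe sets did not show this difference. The brightest, 1452193_a_at, had signals of 7607 and 7596 without treatment, 7945 and 7527 with captopril and 9796 and 10083 at 12 months, and its log2 difference with captopril was 0.02 (adjusted p = 0.71). Probe set 1426776_at had signals of 4949.6 and 4714 without treatment, 4627 and 4223 with captopril and 4636 and 5081 at 12 months, with a log2 difference of -0.13 (adjusted p = 0.16). Thus a single probe set of 3 carried the higher Wasl signal.
Wasf2, the more widely expressed WAVE protein, had signals of 1472 and 1467 without treatment and 1273 and 1258 with captopril. The difference was small (log2 difference -0.22, standard error 0.06, adjusted p = 0.018), and the call was lost without any 1 of these 4 chips (adjusted p = 0.064 to 0.088). Its dimmer probe set, 1438683_at, had 0.60 (adjusted p = 0.11). Wasf1, the WAVE protein of neurons, had a log2 difference of 0.10 (adjusted p = 0.15). Cortactin, encoded by Cttn, stabilises branches. Its probe set 1421315_s_at had signals of 1976 and 2009.6 without treatment and 1336 and 1442 with captopril, and 1421313_s_at had 733 and 697 without treatment and 499 and 507 with captopril. Both were lower with captopril without overlap, at -0.52 and -0.51 on the log2 scale (adjusted p = 0.00041 and 0.0028, limma). The 2 brighter Cttn probe sets, 1433908_a_at and 1423917_a_at, had log2 differences of 0.01 and -0.01 (adjusted p = 0.93 and 0.86).

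**Figure D2:**
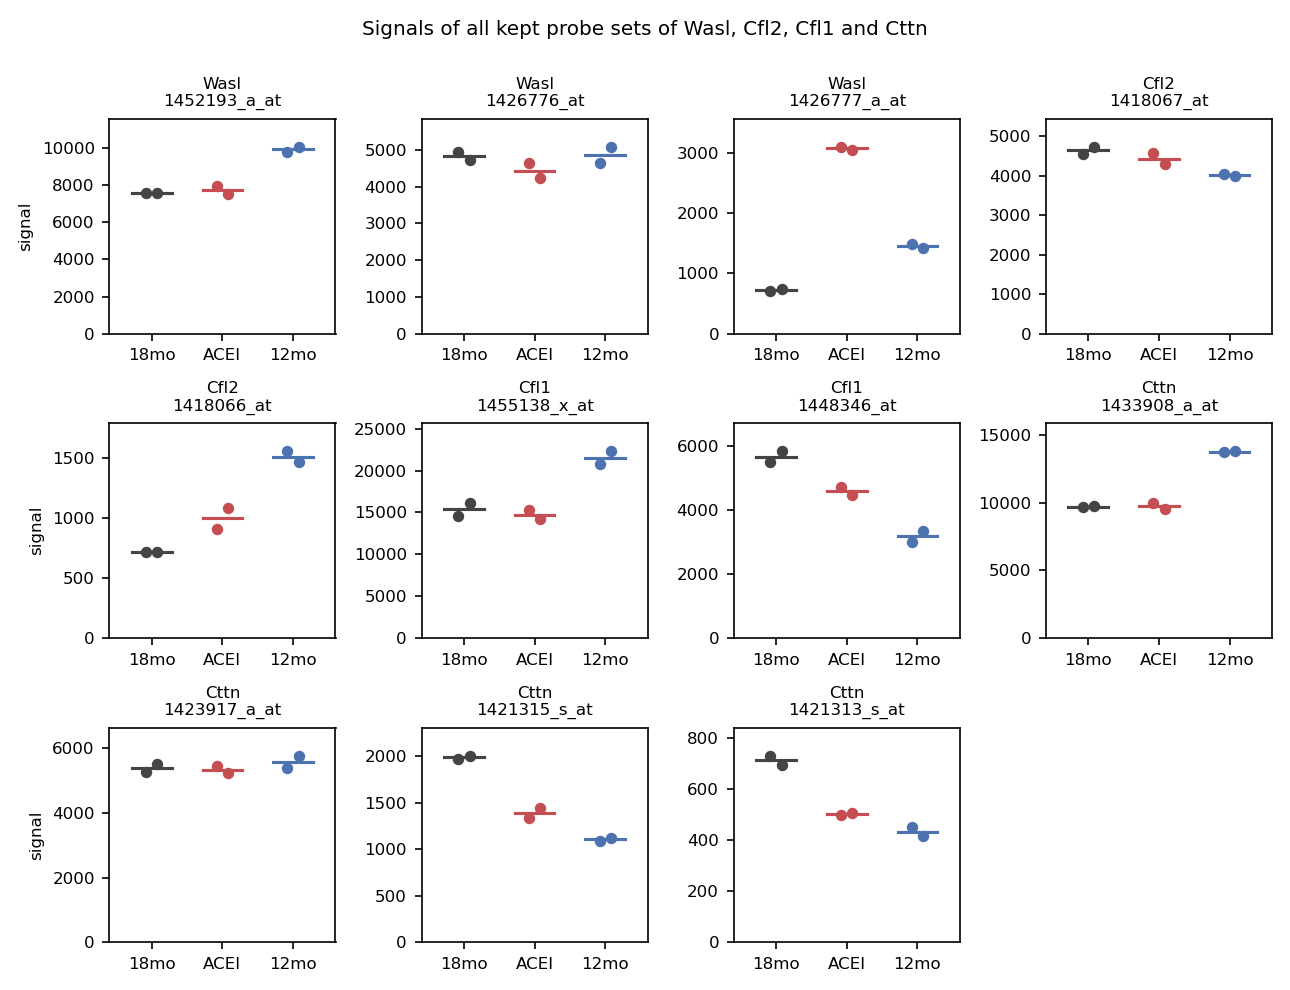
Signal intensity (vertical axes, linear and starting at 0, target value 600) of every kept probe set of Wasl, Cfl2, Cfl1 and Cttn on the 6 chips (horizontal axes, groups Tg-18mo, Tg-18mo-ACEI and Tg-12mo). Each point is a chip and each line a group mean; on Wasl 1426777_a_at the captopril-treated chips, at 3101 and 3046, lie above all others, and the probe sets of Cfl1, Cfl2 and Cttn move in opposite directions between 12 and 18 months.

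The WAVE complex holds WAVE proteins inactive until Rac1 binds. Of its 10 probe sets, 5 were higher with captopril, from 3 of its 5 measured genes, against 15.9% of all probe sets, a difference that was not tested. None was lower at an adjusted p under 0.05 (limma), and 1 was lower at an unadjusted p under 0.05. By the brightest probe set, 1 of the 5 genes, Abi2, was higher, against 12.6% of all genes. Abi2, an Abl-interacting subunit, had signals of 6302 and 6316 without treatment, 8913 and 8811 with captopril and 8731 and 8409 at 12 months on 1436984_at, its brightest probe set. Both groups of 18 months were tight and far apart (1.4-fold, log2 difference 0.49, standard error 0.04, adjusted p = 0.00010). On its other probe set, 1433985_at, signals were 4873 and 5535 without treatment and 5961 and 6307 with captopril, a smaller difference of 0.24 (adjusted p = 0.022) that was lost without chip 1 of Tg-18mo (adjusted p = 0.13) and without chip 2 of Tg-18mo-ACEI (adjusted p = 0.13).
Its paralog Abi1 was higher on 2 of 3 probe sets. Signals of 1450890_a_at were 3258 and 3056 without treatment and 3814 and 3898 with captopril, a log2 difference of 0.29 (adjusted p = 0.0041). Those of 1438506_s_at were 656 and 604 without treatment and 843 and 942 with captopril, a difference of 0.50 (adjusted p = 0.012) that was lost without chip 2 of Tg-18mo (adjusted p = 0.078) and without chip 2 of Tg-18mo-ACEI (adjusted p = 0.091). The brightest Abi1 probe set had a difference of 0.04 (adjusted p = 0.57). Cyfip2, the subunit that receives the Rac1 signal, had signals of 4185 and 4214 without treatment and 6432 and 6142 with captopril on 1449273_at. These did not overlap (1.5-fold, log2 difference 0.58, standard error 0.05, adjusted p = 6.8e-05), while the brighter 1428347_at had a log2 difference of 0.11 (adjusted p = 0.14). Nckap1, a scaffold subunit, and Brk1, the smallest, did not pass, with log2 differences of 0.05 for Nckap1 and of -0.08 and -0.12 for Brk1. After quantile normalization Nckap1 was called higher (0.14, adjusted p = 0.023, limma) and Brk1 1423189_at lower (-0.13, adjusted p = 0.0497).

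In the Arp2/3 complex, Arpc4, a core subunit, was lower. Its brightest probe set, 1423589_at, had signals of 3203 and 3184 without treatment, 2434 and 2606 with captopril and 3566 and 3431 at 12 months. The captopril-treated mice were below both untreated groups (log2 difference -0.34, standard error 0.05, adjusted p = 0.0017 against Tg-18mo), while on 1423588_at the log2 difference was -0.11 (adjusted p = 0.17). Arpc5l, an isoform of the subunit Arpc5, was lower on the dimmer of its 2 probe sets, -0.19 (adjusted p = 0.032), a call that was lost without any 1 of the 4 chips of 18 months (adjusted p = 0.053 to 0.18). Actr3, which forms the actin-like core, and the subunits Arpc1a, Arpc2 and Arpc5 did not pass, with log2 differences between -0.05 and 0.11 on their brightest probe sets. Of the 10 probe sets of the complex, 2 were lower and none was higher at an adjusted p under 0.05 (limma), against 17.7% and 15.9% of all probe sets, with 3 lower and 1 higher at an unadjusted p under 0.05.

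Among regulators of filament turnover, Limk2, a kinase that inactivates cofilin, had signals of 955 and 933 without treatment, 686 and 675 with captopril and 644 and 607 at 12 months. Untreated mice of 18 months were highest (1.39-fold above captopril, log2 difference -0.47, standard error 0.07, adjusted p = 0.0017). Its other probe set, 1418581_a_at, had a log2 difference of -0.18 (adjusted p = 0.13). Cfl1, the main cofilin of neurons, had signals of 5501 and 5851 without treatment and 4734 and 4493 with captopril on 1448346_at. This was lower at -0.30 (adjusted p = 0.0078), and the call was lost without chip 2 of Tg-18mo (adjusted p = 0.061) or chip 2 of Tg-18mo-ACEI (adjusted p = 0.059). The brighter 1455138_x_at had -0.06 (adjusted p = 0.48). Cfl2 moved the other way on its dimmer probe set, 1418066_at, with signals of 721 and 716 without treatment, 914 and 1089 with captopril and 1561 and 1469 at 12 months. The captopril-treated chips lay between the untreated groups, a log2 difference of 0.47 (adjusted p = 0.0044) from Tg-18mo. On the brighter Cfl2 probe set, 1418067_at, signals of 4546 and 4737 without treatment and 4568 and 4297 with captopril overlapped (log2 difference -0.07, adjusted p = 0.34). Dstn, which encodes destrin or ADF, Limk1 and the phosphatase Ssh2 did not pass, with log2 differences of -0.07, -0.09 and 0.02 on their brightest probe sets.

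Pfn1, the ubiquitous profilin, had signals of 3847 and 4063 without treatment, 5237 and 5044 with captopril and 3152 and 3166 at 12 months. The captopril-treated mice were highest and the mice of 12 months lowest, with no overlap (1.3-fold with captopril, log2 difference 0.38, standard error 0.05, adjusted p = 0.00074). Pfn2, the profilin of neurons, did not pass on any of 3 probe sets (log2 differences -0.04, -0.04 and 0.11). The formin Diaph2 had signals of 1337 and 1053 without treatment and 1459 and 1502 with captopril, with chips of the untreated group far apart. Its difference of 0.32 (adjusted p = 0.047) was lost after quantile normalization (adjusted p = 0.054) and without any 1 chip other than chip 1 of Tg-18mo (adjusted p = 0.050 to 0.27), and its value without chip 2 of Tg-18mo was 0.15. Enah and Evl, filament elongators of the Ena/VASP family, were each lower on 1 dimmer probe set, at -0.23 on 1455375_at and -0.23 on 1450106_a_at (adjusted p = 0.030 and 0.023). The Enah call was lost without any 1 of the 4 chips of 18 months (adjusted p = 0.055 to 0.17), and that of Evl without any 1 of these except chip 1 of Tg-18mo-ACEI (adjusted p = 0.065 to 0.13). Vasp, with a log2 difference of -0.19 (adjusted p = 0.30), and the formin Diaph1, with 0.06 (adjusted p = 0.63), did not pass.

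Capping protein is a dimer of an α and a β subunit. The α subunit gene Capza2 had signals of 5179 and 4958 without treatment and 7307 and 7219 with captopril on 1423058_at. These were higher with captopril (1.43-fold, log2 difference 0.52, standard error 0.04, adjusted p = 8.5e-05), whereas its brighter probe set had 0.14 (adjusted p = 0.060). The β subunit gene Capzb had 3798 and 3795 without treatment and 3205 and 3195 with captopril on 1453960_a_at. That was lower at -0.25 (adjusted p = 0.0038), and both of its brighter probe sets did not pass. Of the GTPases and kinases, dimmer probe sets of Cdc42 (1415724_a_at, 0.21 (adjusted p = 0.023)), Rhoa (1450632_at, 0.26 (adjusted p = 0.034)) and Pak3 (1417924_at, 0.52 (adjusted p = 0.012)) were higher. These 3 calls were each lost without chip 2 of Tg-18mo (adjusted p = 0.10, 0.20 and 0.066) and without chip 2 of Tg-18mo-ACEI (adjusted p = 0.14, 0.17 and 0.070), that of Cdc42 also without chip 1 of Tg-18mo (adjusted p = 0.082), and those of Rhoa and Pak3 without chip 1 of Tg-18mo-ACEI (adjusted p = 0.076 and 0.056). The brightest probe sets of Rac1, Cdc42, Rhoa and Pak3 had log2 differences of -0.09, -0.06, 0.04 and -0.05 and did not pass.

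**Figure D3:**
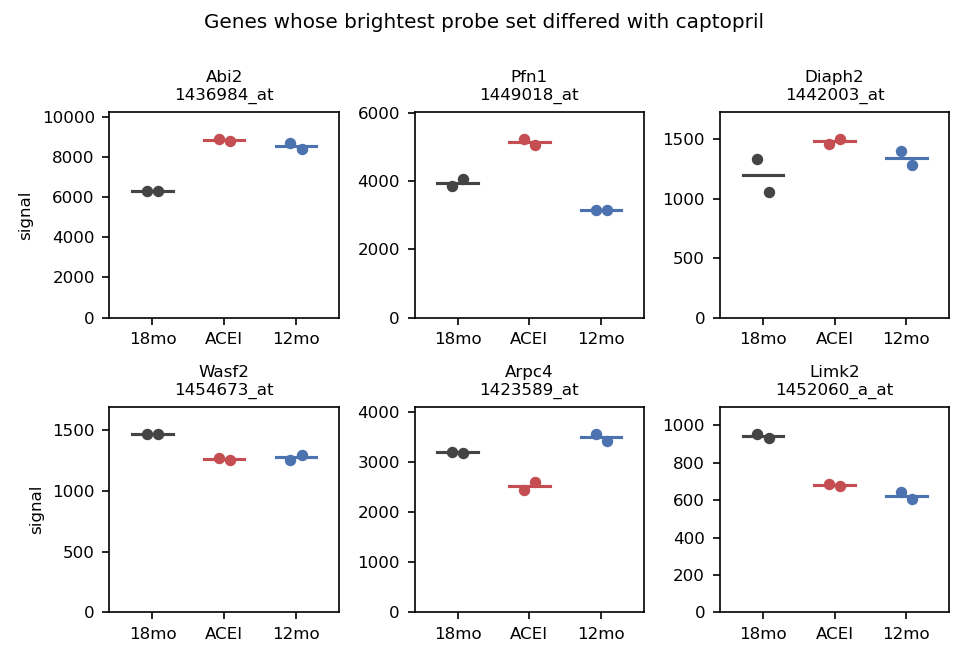
Signal intensity (vertical axes, linear and starting at 0, target value 600) on each chip of the 6 genes whose brightest probe set differed between captopril-treated and untreated mice of 18 months, in the groups Tg-18mo, Tg-18mo-ACEI and Tg-12mo (horizontal axes). Each point is a chip and each line a group mean; Abi2, Pfn1 and Diaph2 are higher and Wasf2, Arpc4 and Limk2 lower in Tg-18mo-ACEI than in Tg-18mo, and both Tg-18mo chips of Diaph2, at 1337 and 1053, are far apart.

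The second question was how the same genes differed between untreated mice of 12 months, with few plaques, and of 18 months. On the deposited scale, 16 of 35 genes were higher at 12 months by their brightest probe set, among them Arpc5l, Cttn and Limk1, as well as Pfn2 and Cfl1, whose brightest probe sets turned to log2 differences of -0.07 and -0.10 after quantile normalization, and 8 were lower, among them Vasp, Limk2, Pfn1 and Capzb. Of the probe sets, 27 of 77 (35.1%) were higher (limma, adjusted p under 0.05), against 21.5% of all, and 21 of 77 (27.3%) were lower, against 25.9% of all. The brightest probe sets of all 12325 genes were higher in 21% and lower in 28%. The median log2 difference of the 35 genes was 0.18, and over all genes it was -0.06. When each chip was left out in turn, 24 of the 27 higher and 15 of the 21 lower probe sets remained called, and the count of lower genes was 5 without chip 1 of Tg-18mo and 5 without chip 1 of Tg-12mo.

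The higher signals were found mostly among bright probe sets. Of all 1709 probe sets with a mean signal of 5000 or more, 68.3% were higher at 12 months and 9.01% lower. Of the 30 actin probe sets in this class, 20 were higher (66.7%) and 2 were lower (6.67%). Between 1000 and 5000, 5 of 32 actin probe sets were higher and 14 lower, against 27.1% and 34.9% of all. After quantile normalization, which gives all chips the same distribution of signals, the median log2 difference of the bright probe sets went from 0.30 to 0.003 over all and from 0.34 to -0.01 for the actin genes. Then 7 genes were higher at 12 months, and 6 of the original 16 remained, namely Wasl, Cttn, Abi2, Arpc5l, Limk1 and Capza1. The other was Diaph1. The CreX and DapX controls were also higher on the chips of 12 months, and the part of this in the actin results was not tested. Lower were 8 genes, with Cfl2, Limk2, Pfn1, Vasp and Capzb called on both scales. The shares of all genes called after quantile normalization are not given here.

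**Figure D4:**
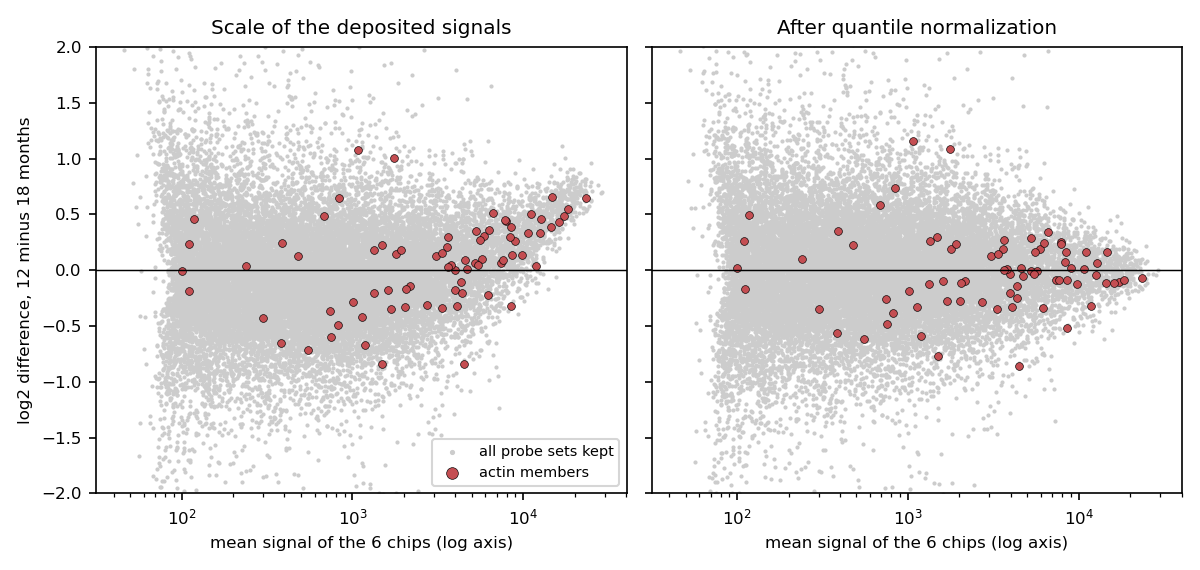
Log2 difference between untreated mice of 12 and 18 months (vertical axes) against mean signal over the 6 chips (horizontal axes, log scale), on the deposited scale (left) and after quantile normalization (right). Grey points are all 23262 probe sets kept, of which 126 on the left and 122 on the right lie beyond the axis limit of 2, and red points are the 77 actin probe sets; on the left most points at or above 5000 lie above 0, with medians of 0.30 for all and 0.34 for the actin genes, and on the right they centre near 0.

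Of the nucleation-promoting factors, Wasl was higher at 12 months on 2 of 3 probe sets. On 1426777_a_at the difference from untreated mice of 18 months was large (2-fold, log2 difference 1.004, standard error 0.06, adjusted p = 1.1e-05), and it was 1.08 after quantile normalization. On 1452193_a_at the log2 difference was 0.39 (adjusted p = 0.00026), and 0.16 after quantile normalization (adjusted p = 0.011), while that of 1426776_at was 0.01 (adjusted p = 0.94). Wasf1 had signals of 11083 and 11155 without treatment, 11474 and 12439 with captopril and 15397 and 15097 at 12 months. Mice of 12 months were above both other groups on the deposited scale (log2 difference 0.46, adjusted p = 0.00017), but not after quantile normalization (0.06, adjusted p = 0.48). Wasf2 was lower, at -0.20 (adjusted p = 0.016), a call that was lost after quantile normalization (adjusted p = 0.10) and without chip 1 of Tg-18mo, chip 2 of Tg-18mo or chip 1 of Tg-12mo (adjusted p = 0.059 to 0.077).
Cttn had calls in both directions. Its brightest probe set, 1433908_a_at, had signals of 9662 and 9748 without treatment, 9966 and 9532 with captopril and 13727 and 13806 at 12 months, higher at 12 months by 0.50 (adjusted p = 5.5e-05), or 0.16 after quantile normalization (adjusted p = 0.0059). Probe set 1421315_s_at had 1976 and 2009.6 at 18 months and 1096 and 1128 at 12 months, and 1421313_s_at had 733 and 697 at 18 months and 451 and 418 at 12 months. Both were lower at 12 months, at -0.84 and -0.72 (adjusted p = 2.5e-05 and 0.00026), and remained so after quantile normalization (-0.77 and -0.61).

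Of the 10 WAVE complex probe sets, 7 were higher at 12 months and none was lower, also at an unadjusted p under 0.05 (limma), against 21.5% and 25.9% of all probe sets. Of the 7, 5 had a mean signal of 5000 or more, the class in which 68.3% of all probe sets were higher. After quantile normalization the directions split, since Abi1, Abi2 and Cyfip2 1449273_at remained higher and Nckap1 turned lower (-0.12, adjusted p = 0.043). Abi2 had log2 differences of 0.44 (adjusted p = 9.5e-05) on 1436984_at and 0.30 (adjusted p = 0.0052) on 1433985_at. On the deposited scale its signals at 12 months lay near those of captopril-treated mice. Abi1 was higher by 0.29 on 1450890_a_at and 0.64 on 1438506_s_at (adjusted p = 0.0022 and 0.0024), and Cyfip2 by 0.35 on 1449273_at (adjusted p = 0.00050). Nckap1 had signals of 13641 and 14873 without treatment, 15575 and 13894 with captopril and 19441 and 19042 at 12 months, with mice of 12 months highest on the deposited scale (log2 difference 0.43, adjusted p = 0.00088). Brk1 was higher on its brightest probe set (log2 difference 0.26, adjusted p = 0.0034), which quantile normalization brought to 0.02.

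In the Arp2/3 complex, Arpc5l had signals of 5775 and 5802 without treatment, 5892 and 5787 with captopril and 8241 and 8241 at 12 months on 1452044_at. Mice of 12 months were highest, and the log2 difference between both groups of 18 months was 0.01. The difference by age was 0.51 (adjusted p = 4.3e-05), or 0.34 after quantile normalization (adjusted p = 0.00022). Actr3 and Arpc2 were higher on the deposited scale only, by 0.33 and 0.39 (adjusted p = 0.00074 and 0.00097), against 0.01 and -0.11 after quantile normalization, where the lower value of Arpc2 passed (adjusted p = 0.034). A second Actr3 probe set, 1452051_at, had 6501 and 6869 at 18 months and 5705 and 5717 at 12 months and was lower, at -0.23 (adjusted p = 0.0041). The dimmer Arpc4 probe set, 1423588_at, was lower at 12 months (log2 difference -0.31, adjusted p = 0.0019), and the brighter one had 0.13 (adjusted p = 0.070). Arpc1a and Arpc5 did not pass, with log2 differences of 0.06 and 0.09.

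Both cofilin genes had probe sets with opposite calls. Cfl1 had signals of 14625 and 16132 without treatment, 15241 and 14171 with captopril and 20740.2 and 22315 at 12 months on 1455138_x_at, its brightest probe set. They were higher at 12 months on the deposited scale (log2 difference 0.49, adjusted p = 0.00046) but not after quantile normalization (-0.10, adjusted p = 0.054). On 1448346_at they were 5501 and 5851 without treatment, 4734 and 4493 with captopril and 3013 and 3344 at 12 months. Here mice of 12 months were lowest and untreated mice of 18 months highest, a log2 difference of -0.84 (adjusted p = 3.0e-05), or -0.86 after quantile normalization. Cfl2 was higher on 1418066_at (2.11-fold, log2 difference 1.08, standard error 0.09, adjusted p = 4.3e-05, listed by the study from the same chips) and lower on the brighter 1418067_at, where signals were 4546 and 4737 at 18 months and 4041 and 3991 at 12 months (log2 difference -0.21, adjusted p = 0.0092). That last call was lost without chip 2 of Tg-18mo (adjusted p = 0.067). Limk1 had signals of 598 and 627 without treatment, 545 and 609.6 with captopril and 871 and 848 at 12 months, and mice of 12 months were highest (log2 difference 0.49, adjusted p = 0.0017). Limk2 was lower on both probe sets, at -0.60 and -0.37 (adjusted p = 0.00027 and 0.0079), the second of which was lost without chip 2 of Tg-18mo (adjusted p = 0.069). Ssh2 was lower as well, at -0.29 and -0.49 (adjusted p = 0.037 and 0.0035), and the first of these calls was lost after quantile normalization (adjusted p = 0.14) and without any 1 chip other than chip 2 of Tg-18mo and chip 2 of Tg-12mo (adjusted p = 0.057 to 0.25). Dstn was higher by 0.30 on the deposited scale and by 0.07 after quantile normalization (adjusted p = 0.0042 and 0.29).

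The 2 profilins differed in opposite directions on the deposited scale. Pfn2 had signals of 19231 and 20458 without treatment, 20056 and 18453 with captopril and 30208 and 31930.2 at 12 months on 1418209_a_at, with mice of 12 months highest (log2 difference 0.65, adjusted p = 6.5e-05). Its other probe sets gave 0.54 and 0.66, and after quantile normalization the 3 values were -0.07, -0.09 and 0.16, of which the last passed (adjusted p = 0.016). Pfn1 was lower at 12 months, with a log2 difference of -0.32 (adjusted p = 0.00090), or -0.33 after quantile normalization. Vasp had signals of 443 and 467 without treatment, 383 and 414 with captopril and 257 and 327 at 12 months. Mice of 12 months were lowest without overlap (log2 difference -0.65, standard error 0.13, adjusted p = 0.0041). Enah was higher on its brightest probe set, 1424800_at (5119.8 and 5119.7 at 18 months and 6306 and 6030.5 at 12 months, log2 difference 0.27, adjusted p = 0.013), and lower on 1455375_at (1476 and 1393 at 18 months and 914 and 886 at 12 months, log2 difference -0.67, adjusted p = 9.3e-05). The higher call was lost after quantile normalization (adjusted p = 0.10) and without chip 1 of Tg-18mo, chip 2 of Tg-18mo or chip 1 of Tg-12mo (adjusted p = 0.054 to 0.069). Evl was lower on 1450106_a_at (log2 difference -0.42, adjusted p = 0.00083), and the brightest probe sets of Evl, Diaph1 and Diaph2 did not pass, with 0.21, 0.23 and 0.18. After quantile normalization Diaph1 1454979_at, its brightest, was called higher (0.30, adjusted p = 0.020, limma).

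Capzb was lower on all 3 probe sets at 12 months, at -0.32, -0.18 and -0.34 (adjusted p = 0.0045, 0.027 and 0.00041). Its direction held after quantile normalization (-0.52, -0.21 and -0.35), and the second call was lost without chip 2 of Tg-18mo (adjusted p = 0.15) and without chip 1 of Tg-12mo (adjusted p = 0.14). Capza2 was higher on both, by 0.34 and 0.36, of which only 1423058_at remained after quantile normalization (0.24, against -0.04). Capza1 was split, with 1804 and 1777 at 18 months and 2114 and 1957 at 12 months on 1439455_x_at (log2 difference 0.18, adjusted p = 0.027) and 1778 and 1833 at 18 months and 1419 and 1413 at 12 months on 1452038_at (log2 difference -0.35, adjusted p = 0.0010). The higher call was lost without chip 1 of Tg-18mo, chip 2 of Tg-18mo or chip 1 of Tg-12mo (adjusted p = 0.082 to 0.13). Among the GTPases, Cdc42 was higher on 1435807_at (log2 difference 0.45, adjusted p = 0.00018), Rac1 on 1423734_at (log2 difference 0.15, adjusted p = 0.049) and Rhoa lower on 1437628_s_at (log2 difference -0.14, adjusted p = 0.049). The brightest Rac1 probe set, 1451086_s_at, had 0.03 (adjusted p = 0.69) on the deposited scale and -0.33 after quantile normalization (adjusted p = 0.0012), where it was called lower. The calls of Rac1 1423734_at and Rhoa were lost after quantile normalization (adjusted p = 0.053 and 0.15) and without any 1 of the chips of either untreated group (adjusted p = 0.072 to 0.21 for Rac1, and 0.060 to 0.16 for Rhoa over all 6 chips). Pak3 was lower on 1417923_at (log2 difference -0.33, adjusted p = 0.0011), and its 3 other probe sets did not pass.

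The third comparison set captopril-treated mice against those of 12 months without treatment, the age at which treatment began. It shares its chips with the other 2 comparisons, so its values are given beside theirs and not as a further test of them. Pfn1 and Wasl 1426777_a_at were higher in captopril-treated mice, and the brightest probe sets of Arpc4, Arpc5l and Limk1 were lower, on the deposited scale and after quantile normalization. In all, 18 of 77 probe sets (23.4%) were higher, against 22.3% of all, and 22 of 77 (28.6%) were lower, against 17.7% of all (limma, adjusted p under 0.05). By their brightest probe set, 4 genes were higher and 16 lower (11.4% and 45.7%, against 20.1% and 20.6% of all genes), with a median log2 difference of -0.12, against 0.008 over all genes. Among all probe sets with a mean signal of 5000 or more, 5.27% were higher and 70.7% lower in this comparison. The 30 actin probe sets of this class had 2 higher and 17 lower (6.67% and 56.7%). After quantile normalization, 12 genes were higher and 4 lower, and Pfn1 was the single gene called higher on both scales. Diaph1 was among those lower (log2 difference -0.26, adjusted p = 0.042, limma). The shares of all genes called on that scale are not given here, so these counts cannot be set against the whole chip. When each chip was left out in turn, 10 of the 18 higher and 18 of the 22 lower probe sets remained called. The higher count was 11 without chip 1 of Tg-18mo-ACEI and 11 without chip 2 of Tg-18mo-ACEI, and the genes called higher were 1, 2 and 1 without these chips and without chip 1 of Tg-12mo.

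Pfn1 was 1.63-fold higher with captopril than at 12 months (log2 difference 0.70, standard error 0.05, adjusted p = 2.9e-05, and 0.74 after quantile normalization). Wasl 1426777_a_at was 2.11-fold higher (log2 difference 1.08, standard error 0.06, adjusted p = 1.2e-05), whereas on 1452193_a_at the log2 difference was -0.36 (adjusted p = 0.00048), which did not pass after quantile normalization (-0.09, adjusted p = 0.10). Arpc4 was lower at -0.47 on 1423589_at (adjusted p = 0.00023) and higher by 0.21 on 1423588_at (adjusted p = 0.016), the latter lost without any 1 of the 4 chips compared (adjusted p = 0.052 to 0.084). Limk1 was lower at -0.58 and Arpc5l at -0.50 and -0.33 (adjusted p = 0.00093, 6.1e-05 and 0.0019). The bright probe sets of Pfn2, Cfl1 and Cttn were lower at -0.69, -0.55 and -0.50 on the deposited scale, but had 0.10, 0.12 and -0.10 after quantile normalization, so that Pfn2 and Cfl1 turned direction. Vasp was higher by 0.46 (adjusted p = 0.024), which was lost after quantile normalization (adjusted p = 0.074) and without chip 1 of Tg-18mo-ACEI, chip 2 of Tg-18mo-ACEI or chip 1 of Tg-12mo (adjusted p = 0.064 to 0.13).
Of the dimmer probe sets, Cfl1 1448346_at was higher by 0.54 and Cfl2 1418066_at lower at -0.60 (adjusted p = 0.00030 and 0.00097). Cyfip2 1449273_at was higher by 0.23 and Cttn 1421315_s_at by 0.32 (adjusted p = 0.0059 and 0.0035), while Abi2 had log2 differences of 0.05 and -0.06 that did not pass. After quantile normalization Abi2 1436984_at was called higher with captopril (0.33, adjusted p = 0.00058, limma), and 1433985_at was not (0.09, adjusted p = 0.29). Enah was higher on 1424801_at and 1455375_at (log2 differences 0.29 and 0.45) and lower on 1424800_at (-0.20, which did not pass after quantile normalization). Capza2 was lower on 1423057_at and higher on 1423058_at (log2 differences -0.20 and 0.16), and the first of these turned to 0.28 after quantile normalization. Cdc42 was lower on 1449574_a_at and 1435807_at and higher on 1415724_a_at (log2 differences -0.19, -0.45 and 0.17), and the first turned to 0.07 after quantile normalization. The weaker of these opposite calls were each lost without at least 1 chip: Enah 1424800_at (adjusted p = 0.069 to 0.27, without any 1 chip other than chip 2 of Tg-18mo-ACEI), Capza2 1423057_at (adjusted p = 0.074 to 0.081, without chip 2 of Tg-18mo-ACEI or chip 2 of Tg-12mo), Capza2 1423058_at (adjusted p = 0.066 to 0.089, without any 1 of the 4 chips compared), Cdc42 1449574_a_at (adjusted p = 0.051 to 0.10, without chip 2 of Tg-18mo-ACEI or either Tg-12mo chip) and Cdc42 1415724_a_at (adjusted p = 0.068 to 0.27, without any 1 chip other than chip 1 of Tg-18mo-ACEI).

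Probe sets of the same gene often differed. With captopril, none of the 27 genes with more than 1 kept probe set had calls in opposite directions (limma, adjusted p under 0.05), and the range of log2 differences within a gene had a median of 0.29. Between 12 and 18 months, on the deposited scale, 6 genes had opposite calls, Actr3, Capza1, Cfl1, Cfl2, Cttn and Enah, and the median range was 0.43. The widest were Cttn, Cfl1 and Cfl2, with ranges of 1.35, 1.32 and 1.28. Between captopril-treated mice and mice of 12 months there were 7, Arpc4, Capza2, Cdc42, Cfl1, Cttn, Enah and Wasl. After quantile normalization, opposite calls between 12 and 18 months remained for Capza1, Cfl2 and Cttn. Those between captopril-treated mice and mice of 12 months remained for Arpc4 and Cdc42, and Cfl2 gained them. Actr3 1434968_a_at had signals of 9867 and 9851 without treatment, 9521 and 10026 with captopril and 12785 and 12089.6 at 12 months, highest at 12 months, while its 1452051_at was lowest there. Arpc4 1423588_at had 2872 and 3124 without treatment, 2752 and 2814 with captopril and 2409 and 2408 at 12 months, lowest at 12 months, where its 1423589_at was highest. Capza2 1423057_at had 11268 and 11134 without treatment, 12650.1 and 11978 with captopril and 13813 and 14479 at 12 months, and 1423058_at had 7307 and 7219 with captopril and 6515 and 6488 at 12 months, so that captopril-treated mice were highest on the second probe set and mice of 12 months on the first.
Cdc42 1449574_a_at had 8275 and 7787 with captopril and 9111 and 9267 at 12 months, and 1435807_at had 6748 and 7278 with captopril and 9739 and 9417 at 12 months. On both, mice of 12 months were the higher group. On 1415724_a_at signals were 3923 and 4325 with captopril and 3589 and 3751 at 12 months, with captopril-treated mice higher. Enah 1424801_at had 1772 and 1753 with captopril and 1387 and 1504 at 12 months and 1455375_at had 1186 and 1269 with captopril and 914 and 886 at 12 months, both higher with captopril, whereas 1424800_at had 4980.4 and 5787 with captopril and 6306 and 6030.5 at 12 months and was lower. Of the 13 probe sets higher with captopril, 10 were not the brightest of their gene, as were 7 of the 10 lower. Which transcripts the probe sets bind was not analysed here.

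At the thresholds of the study's methods (t-test on linear signals, an unadjusted p of 0.01 or less and a 2-fold difference), Wasl 1426777_a_at was the 1 actin probe set higher with captopril, where 1.94% of all probe sets passed. Between 12 and 18 months, Wasl 1426777_a_at and Cfl2 1418066_at were higher at 12 months, against 0.748% of all. Between captopril-treated mice and mice of 12 months, Wasl 1426777_a_at was higher, against 0.937% of all. None of the 77 was lower in the 3 comparisons, against 0.447%, 1.16% and 0.559% of all. At an unadjusted p under 0.05 by the same test, with no fold required, 11, 27 and 17 were higher and 9, 17 and 20 were lower. The shares over all probe sets at this threshold are not given here. By limma at an adjusted p under 0.05 the counts were 13, 27 and 18 higher and 10, 21 and 22 lower.

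Other genes of actin structure and turnover were counted from a list of 73, of which 64 were measured. With captopril, 9 were higher and 21 lower by their brightest probe set (14.1% and 32.8%, median log2 difference -0.10), against 12.6% and 21.7% of all genes. The largest were Tmod3, a cap of pointed filament ends (log2 difference 1.16), and in the lower direction Hcls1, the cortactin homolog of blood cells (-1.05), Tpm2, a tropomyosin of contractile cells (-1.01), and Capg, a capping protein of macrophages (-0.95). Hcls1 was dim, with 106 and 115 without treatment and 52.7 and 53.9 with captopril, and the latter lie below the minimum signal of 100, so that the size of its difference is not firm. Tmod3 had signals of 613 and 608 without treatment, 1277 and 1462 with captopril and 434 and 619 at 12 months, so the captopril-treated mice were above both untreated groups, while its 2 dimmer probe sets had log2 differences of 0.93 on 1423089_at and 0.16 on 1423088_at, of which the second did not pass. At 12 months, 14 were higher and 26 lower than at 18 months (21.9% and 40.6%, median -0.18), against 21% and 28% of all genes. Largest were the slingshot phosphatase Ssh3 (-1.61), the formin Daam2 (-1.28), Abi3, the Abl interactor of microglia (-1.07), and Actb, which encodes β-actin (0.88). Ssh3, with 43.2 and 72.1 at 12 months, and Abi3, with 61 and 124, had means below the minimum signal there, and the sizes of their differences are not firm. Actb had signals of 12406 and 14714 without treatment, 16337 and 14615 with captopril and 23781 and 25894 at 12 months. It belongs to the bright class in which most probe sets were higher at 12 months, and its log2 difference was 0.29 after quantile normalization. Between captopril-treated mice and mice of 12 months, 17 were higher and 18 lower (26.6% and 28.1%), against 20.1% and 20.6% of all genes. Largest were Tmod3 (log2 difference 1.398), Cap1, a partner of cofilin (-0.95), Ssh3 (0.88) and Tmsb10, a thymosin that binds actin monomers (-0.87). Tmsb10 belongs to the same bright class as Actb, in which 70.7% of all probe sets were lower and 5.27% higher in this comparison.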

How the data were processed

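Hippocampal RNA, 6 chips in 3 groups of 2, was analysed. The authors scanned Affymetrix MG430 2.0 chips and processed them in GCOS, scaled to a target of 600, and the deposited values are linear signal intensities. The trimmed mean was 600 on each chip. Depth does not apply to arrays, and the number of chips limits the precision. Probe sets were named through GEO's platform annotation. The 64 control probe sets and those with a mean signal under 100 in every group were left out of the test, leaving 23262 of 45101. On log2 signals, 3 group means were fitted to all chips in limma 3.58.1 (R 4.3.3; eBayes with trend, 3 residual and 5.37 prior degrees of freedom), with Benjamini-Hochberg adjustment over all probe sets kept and a threshold of 0.05. The script was tested on simulated data. All 3 comparisons share chips. Alternatives were quantile normalization, division by the median, other minimum signals, leaving out each chip, a replicate block, the mean of a gene's probe sets and the methods' t-test on linear signals. A gene is represented by its brightest probe set. Signals on each chip were given for Wasl and Cfl2, for the brightest probe set of the 8 genes with the largest called difference per comparison, for other called probe sets with a log2 difference of 1 or more, and for genes with opposite calls; those of further probe sets were chosen after their values were seen. Of the other actin genes, the 4 with the largest called difference per comparison were named. The members and lists were chosen with earlier results of these data known. Promoters are from RefSeq, GRCm38.p6. Figures were drawn in Python 3.11.15.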

Additional observations from a re-analysis of the deposited data

How the results depend on the processing

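The 3 comparisons were refitted under each alternative, and of 3222 alternative values for the 77 probe sets 2818 kept their direction and side of the threshold, 257 lost a call, 46 gained one, 85 without a call moved beyond the spread between chips and 16 reversed. All 16 reversals came with quantile normalization. Between 12 and 18 months they were Nckap1 (-0.12), Arpc2 (-0.11), Cfl1 1455138_x_at (-0.10), Pfn2 1418209_a_at (-0.068), Pfn2 1418210_at (-0.089) and Capza2 1423057_at (-0.040). Between captopril-treated mice and mice of 12 months they were Wasf1 (0.15), Nckap1 (0.26), Actr3 1434968_a_at (0.036), Arpc2 (0.12), Cfl1 1455138_x_at (0.12), Pfn2 1418209_a_at (0.10), Pfn2 1418210_at (0.12), Pfn2 1436993_x_at (0.050), Capza2 1423057_at (0.28) and Cdc42 1449574_a_at (0.072). The cause was not tested.

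With captopril, 6 genes were higher under quantile normalization and 7 by the mean of a gene's probe sets, 6 genes were lower by that mean, and 6 probe sets were lower with each chip divided by its median. At 12 months, 17 probe sets and 7 genes were higher under quantile normalization. Between captopril-treated mice and mice of 12 months, quantile normalization gave 12 genes higher, 8 probe sets lower and 4 genes lower, and the mean of probe sets gave 7 genes higher and 10 lower. By the methods' t-test with Benjamini-Hochberg adjustment, the counts of probe sets higher and lower were 1 and 1 with captopril, 3 and 3 at 12 months, and 0 and 1 between captopril-treated mice and mice of 12 months. The counts of genes were 0 and 0, 3 and 1, and 0 and 1. Limma counts at an unadjusted p under 0.05, in both directions together, were 32, 55 and 45 probe sets. The shares over all probe sets at this threshold are not given here.

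Leaving out each chip in turn gave 7 to 12 probe sets higher and 5 to 11 lower with captopril (2 to 3 genes each way), 24 to 29 and 17 to 21 at 12 months (genes 14 to 18 and 5 to 7), and 11 to 16 and 20 to 21 between captopril-treated mice and mice of 12 months (genes 1 to 4 and 13 to 15). With the replicate block, counts of probe sets were 13 and 9, 26 and 20, and 16 and 21, and 6 calls were lost. The deviations of chips with the same replicate number correlated at -0.03, 0.03 and -0.05 over all probe sets and at 0.13, -0.04 and -0.28 over the 77, and no label pairs the chips, so they were taken to share only a number.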
